A study of Mus musculus with 14 samples.

Results

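The interferon gamma to CXCR3 axis was examined in mouse lung through 8 genes: *Ifng*, the chemokine genes *Cxcl9*, *Cxcl10* and *Cxcl11*, their receptor gene *Cxcr3*, and *Tbx21*, *Il12rb1* and *Il12rb2*, which belong to the type 1 programme that makes interferon gamma. The genes were taken by symbol from the deposited table of normalized counts, which held 7 of the 8 among its 24270 genes, and all 7 passed the filter on low values with 22828 genes in all. *Cxcl11* was not analysed here. The 14 lung RNA-seq libraries came from C57BL/6 mice in 4 groups, namely OVA-challenged *Mcemp1*-/- (knockout, KO, n = 4), OVA-challenged *Mcemp1*+/+ (wild-type, WT, n = 4), saline-treated *Mcemp1*-/- (n = 3) and saline-treated *Mcemp1*+/+ (n = 3). *Mcemp1*-/- mice carried a germline CRISPR-Cas9 frameshift deletion in exon 1, present in every cell type of the mouse; the gene encodes a mast cell adaptor of the receptor KIT. OVA, an egg protein used as an allergen, was injected into the peritoneum on days 1, 4 and 7 in mice aged 6 to 8 weeks, then given through the nose 5 days later and weekly for 8 weeks; saline-treated mice received saline by both routes. The study's methods describe mice matched by age and sex, recovery of lavage fluid and perfusion of the lung before tissue was taken. The labels number the libraries within each group without stating that each is a separate mouse, so the tests speak only to the spread among the libraries at hand.

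Interferon gamma is released mainly by T cells and NK cells. It acts through its receptor on macrophages, endothelium and epithelium, which then make CXCL9, CXCL10 and CXCL11. These chemokines draw in T and NK cells that carry CXCR3, and interferon gamma from the incoming cells can induce more ligand. IL-12 bound to the receptor made of IL12RB1 and IL12RB2 activates STAT4, which with the transcription factor T-bet, the product of *Tbx21*, turns on *Ifng* and *Cxcr3*. Allergic asthma models with OVA are known mainly for a type 2 response, driven by IL-4, IL-5 and IL-13.

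In these lungs the ligands moved most. OVA raised *Cxcl9* in both genotypes, and raised *Cxcl10*, *Ifng* and *Il12rb1* past the threshold in *Mcemp1*+/+ lungs. No gene of the axis passed the threshold between genotypes, although after OVA the means of *Ifng*, *Cxcl9* and *Cxcl10* were lower, and that of *Il12rb2* higher, in *Mcemp1*-/- lungs than in *Mcemp1*+/+ lungs.

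The ligand genes lie next to each other on chromosome 5 of GRCm38, all on the minus strand, with *Cxcl9* at chr5:92321347-92328079, *Cxcl10* at chr5:92346638-92348889 and *Cxcl11* at chr5:92359544-92365485 (GENCODE M21). *Ifng* is at chr10:118441046-118445892 on the plus strand and *Cxcr3* at chrX:101731535-101734269 on the minus strand. *Tbx21* is at chr11:97098071-97115331 (minus), *Il12rb1* at chr8:70808449-70821424 (plus) and *Il12rb2* at chr6:67291318-67376188 (minus). The 250 bases before the RefSeq start of *Cxcl9* and *Cxcl10* (GRCm38.p6, 5′ to 3′) are shown because these are the pair of genes that moved together. Capitals mark matches, on either strand, to the interferon-stimulated response element GAAANNGAAA (ISRE), the gamma-activated site TTCNNNGAA (GAS), the T-box core GGTGTGA or the kappa-B consensus of NF-kB.
*Cxcl10*, chr5:92348890-92349139, minus strand: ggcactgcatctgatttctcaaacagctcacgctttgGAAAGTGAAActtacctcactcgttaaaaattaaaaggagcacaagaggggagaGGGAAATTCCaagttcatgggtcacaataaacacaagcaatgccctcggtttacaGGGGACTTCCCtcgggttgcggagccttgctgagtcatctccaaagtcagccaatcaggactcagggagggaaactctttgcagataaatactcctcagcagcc
*Cxcl9*, chr5:92328080-92328329, minus strand: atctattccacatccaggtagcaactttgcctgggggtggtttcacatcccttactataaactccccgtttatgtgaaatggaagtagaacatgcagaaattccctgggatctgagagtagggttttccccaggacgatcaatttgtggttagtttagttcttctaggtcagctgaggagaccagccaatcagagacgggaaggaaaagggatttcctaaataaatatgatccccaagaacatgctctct
The *Cxcl10* window held 1 ISRE match, 213 to 204 bases before the start, and 3 kappa-B matches, at 159 to 150, 104 to 95 and 103 to 94 bases, of which the last pair overlap. The *Cxcl9* window held 0 matches to the 4 patterns. Among 32851 RefSeq windows of the same length, 2.98% held the ISRE pattern, 7.02% the GAS pattern, 7.25% the kappa-B consensus and 3.33% the T-box core. Of the other axis genes with a RefSeq promoter, *Ifng* had 1 GAS match 249 to 241 bases before its start and *Il12rb2* had 1 at 123 to 115 bases, whereas the windows of *Cxcr3* and *Tbx21* had 0. A match is a description of the letters and not evidence of binding. Variants of the patterns and other elements were not searched for, so 0 matches do not show that a promoter lacks a responsive element.

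Several features of the whole series touch these genes. Depth, estimated as the column total over the lowest value, was 47.3M to 67.1M reads per library, and OVA-challenged *Mcemp1*-/- libraries (57.2M to 67.1M) were deeper than OVA-challenged *Mcemp1*+/+ libraries (47.3M to 49.4M). *Mcemp1* itself had normalized counts of 3.73 to 4.88 in OVA-challenged *Mcemp1*-/- lungs, against 11.5 to 20.1 in OVA-challenged *Mcemp1*+/+ lungs, and of 3.50 to 4.98 in saline-treated *Mcemp1*-/- lungs, against 9.84 to 11.95 in saline-treated *Mcemp1*+/+ lungs, so every library matched the genotype of its label. The OVA and saline ranges overlapped within each genotype, so this gene does not check the treatment. The surfactant gene *Sftpc*, a lung marker, averaged 9322 to 11226 in the 4 groups. Library 2 of OVA-challenged *Mcemp1*+/+ mice stood apart in lymphocyte genes: its summed normalized counts were 473 for 14 T cell markers and 621 for 6 B cell markers, against 104 to 129 for T cell and 109 to 160 for B cell markers in the other 3 libraries of its group. That library and library 3 of OVA-challenged *Mcemp1*-/- mice also had the highest sums of mucous airway genes, 2627 in the first and 4256 in the second. Heart muscle genes summed to 149 to 521 in OVA-challenged and 359 to 696 in saline-treated *Mcemp1*-/- lungs, and to 60.8 to 178 in OVA-challenged and 826 to 1370 in saline-treated *Mcemp1*+/+ lungs. In bulk RNA, fewer cells of a type and less RNA per cell cannot be told apart.

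*Cxcl9*, a ligand induced chiefly by interferon gamma, had normalized counts of 22.9, 8.86, 12.1 and 3.63 in OVA-challenged *Mcemp1*-/- lungs, against 0.398, 0.435 and 0.494 in saline-treated *Mcemp1*-/- lungs. In *Mcemp1*+/+ lungs it had 21.2, 19.5, 15.3 and 23.3 after OVA, against 1.02, 0.235 and 0.420 after saline. All 8 OVA libraries therefore lay above all 6 saline libraries, and the *Mcemp1*-/- libraries spread 6.30-fold from lowest to highest while the *Mcemp1*+/+ libraries spread 1.52-fold. The ratio of group means, OVA over saline, was 26.9 in *Mcemp1*-/- and 35.5 in *Mcemp1*+/+ lungs. On the log2(value + 0.502) scale used for the tests, which understates changes of low genes, *Cxcl9* rose by 3.46 ± 0.43 (SE; limma, adjusted p = 0.00544) in *Mcemp1*-/- lungs and by 4.31 ± 0.43 (limma, adjusted p = 0.000262) in *Mcemp1*+/+ lungs. In *Mcemp1*-/- lungs the call was lost when only the 2 groups compared were fitted (limma, adjusted p = 0.0731).

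*Cxcl10*, which type I interferons and NF-kB induce as well as interferon gamma, had 12.7, 5.38, 5.83 and 2.20 in OVA-challenged *Mcemp1*-/- lungs, against 0.992, 0.719 and 1.17 in saline-treated *Mcemp1*-/- lungs. *Mcemp1*+/+ lungs had 19.9, 12.3, 11.2 and 22.4 after OVA, against 1.99, 1.07 and 1.47 after saline. Neither genotype's OVA libraries overlapped its saline libraries, and library 4 of the OVA-challenged *Mcemp1*-/- mice was lowest of the 8 OVA libraries for both ligands. The rise of 3.04 ± 0.41 in *Mcemp1*+/+ lungs passed the threshold (limma, adjusted p = 0.000628). The change of 2.06 ± 0.41 in *Mcemp1*-/- lungs did not (limma, adjusted p = 0.0504), and it passed without library 4 of the OVA-challenged *Mcemp1*-/- mice (2.44 ± 0.33, adjusted p = 0.00487) or without library 2 of the OVA-challenged *Mcemp1*+/+ mice (2.06 ± 0.42, adjusted p = 0.0471).

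The ligands also changed relative to each other. The ratio of *Cxcl9* to *Cxcl10* normalized counts was 1.80, 1.65, 2.08 and 1.65 in OVA-challenged *Mcemp1*-/- lungs, against 0.401, 0.605 and 0.424 in saline-treated *Mcemp1*-/- lungs. In *Mcemp1*+/+ lungs it was 1.07, 1.59, 1.37 and 1.04 after OVA, against 0.511, 0.220 and 0.286 after saline. Every OVA library thus had a higher ratio than every saline library, as the plot of *Cxcl9* against *Cxcl10* shows. After OVA the ratio was higher in each *Mcemp1*-/- library than in any *Mcemp1*+/+ library. The gap was narrow, 1.65 at the lowest against 1.59 in *Mcemp1*+/+ library 2, and this difference was not tested. Whether a ratio lies above 1 depends on the unit: without a length correction it did in all 8 OVA libraries. Per kilobase of exon it did in 6 of the 8 (0.776 to 1.55), and all 6 saline libraries were below 1 on both scales. The exon length merged all transcripts of a gene, and for *Cxcl10* it was 1 block of 2252 bases spanning the whole gene. A shorter spliced length of *Cxcl10* would lower every ratio per kilobase, so the count of 6 holds for this length only. Across all 14 libraries, deviations of the pair from their group means on the log2 scale had r = 0.934 (rho = 0.864), a description over points that share library depth and tissue makeup.

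**Figure D1:**
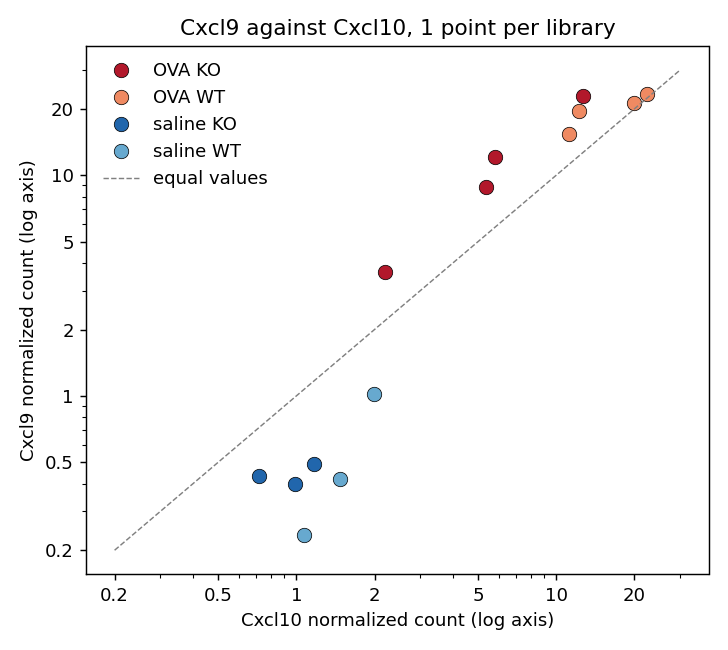
Normalized counts of *Cxcl9* (vertical log axis) against *Cxcl10* (horizontal log axis), 1 point per library, coloured by group, with a dashed line where both values, not corrected for transcript length, are equal. The 8 OVA libraries lie above the line and the 6 saline libraries below it, and 1 *Mcemp1*-/- OVA library (2.20 and 3.63) lies nearest to the saline libraries.

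*Ifng*, the cytokine gene, was near the lower limit of detection, at 7.9 to 43.4 estimated reads per library (its value over the lowest value of the library, less 1). Its normalized counts were 0.649, 0.546, 0.450 and 0.635 in OVA-challenged *Mcemp1*-/- lungs, against 0.235, 0.447 and 0.176 in saline-treated *Mcemp1*-/- lungs. In *Mcemp1*+/+ lungs they were 0.917, 0.689, 0.797 and 0.932 after OVA, against 0.272, 0.253 and 0.240 after saline. OVA libraries did not overlap saline libraries in either genotype, but in *Mcemp1*-/- lungs the lowest OVA library (0.450) stood beside the highest saline library (0.447). *Ifng* rose by 0.82 ± 0.12 in *Mcemp1*+/+ lungs (limma, adjusted p = 0.00109), with a ratio of group means of 3.27. In *Mcemp1*-/- lungs the change was 0.46 ± 0.12 (limma, adjusted p = 0.139), with a ratio of 1.99.

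*Cxcr3*, the chemokine receptor gene of activated T and NK cells, did not pass the threshold in any comparison. It had 4.26, 2.97, 2.05 and 4.35 in OVA-challenged *Mcemp1*-/- lungs, against 1.83, 2.57 and 1.56 in saline-treated *Mcemp1*-/- lungs. The *Mcemp1*+/+ values were 2.39, 5.64, 2.12 and 2.27 after OVA, against 1.96, 2.26 and 1.09 after saline. OVA and saline libraries overlapped in both genotypes, and the high *Mcemp1*+/+ value came from library 2, the one rich in T and B cell markers. The log2 change with OVA was 0.62 ± 0.32 in *Mcemp1*-/- lungs (limma, adjusted p = 0.485) and 0.60 ± 0.32 in *Mcemp1*+/+ lungs (adjusted p = 0.249), and the second was 0.32 ± 0.26 without that library (adjusted p = 0.479).

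*Il12rb1* encodes the IL-12 receptor chain shared with the IL-23 receptor. It had 2.18, 1.55, 1.23 and 1.69 in OVA-challenged *Mcemp1*-/- lungs, against 1.15, 1.09 and 0.949 in saline-treated *Mcemp1*-/- lungs. In *Mcemp1*+/+ lungs it had 1.58, 3.30, 1.53 and 1.25 after OVA, against 0.798, 0.887 and 0.765 after saline. Both sets of OVA libraries lay above their saline libraries. *Il12rb1* rose by 0.81 ± 0.22 in *Mcemp1*+/+ lungs (limma, adjusted p = 0.0318) and its change in *Mcemp1*-/- lungs was 0.45 ± 0.22 (adjusted p = 0.466). Library 2 again gave the highest value, and without it the *Mcemp1*+/+ rise was 0.57 ± 0.15 (adjusted p = 0.0253). The call was lost with columns scaled to equal totals (adjusted p = 0.0582), with only the 2 groups fitted (adjusted p = 0.0955), and without OVA-challenged *Mcemp1*+/+ library 1 or any 1 of the saline-treated *Mcemp1*+/+ libraries (limma, adjusted p = 0.0521 to 0.0944).

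*Il12rb2* encodes the chain that confers IL-12 signalling and is kept on type 1 T cells. It had 0.935, 0.876, 0.770 and 1.10 in OVA-challenged *Mcemp1*-/- lungs, against 0.551, 0.669 and 0.376 in saline-treated *Mcemp1*-/- lungs. The *Mcemp1*+/+ libraries had 0.765, 0.582, 0.483 and 0.302 after OVA, against 0.317, 0.917 and 0.429 after saline. Only the OVA-challenged *Mcemp1*-/- libraries stood clear of their saline group, with a log2 change of 0.46 ± 0.19 (limma, adjusted p = 0.374), against -0.01 ± 0.19 in *Mcemp1*+/+ lungs (adjusted p = 0.985). These values rest on 11.7 to 75.7 estimated reads.

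*Tbx21*, the gene of T-bet, did not pass the threshold in any comparison. It had 2.51, 2.41, 1.69 and 2.39 in OVA-challenged *Mcemp1*-/- lungs, against 1.73, 1.82 and 1.90 in saline-treated *Mcemp1*-/- lungs. Values in *Mcemp1*+/+ lungs were 2.44, 2.66, 1.89 and 2.22 after OVA, against 1.33, 1.83 and 1.68 after saline. The *Mcemp1*-/- groups overlapped through OVA library 3, and the *Mcemp1*+/+ groups did not overlap. The log2 change was 0.24 ± 0.14 (limma, adjusted p = 0.574) in *Mcemp1*-/- lungs and 0.41 ± 0.14 (adjusted p = 0.0824) in *Mcemp1*+/+ lungs.

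**Figure D2:**
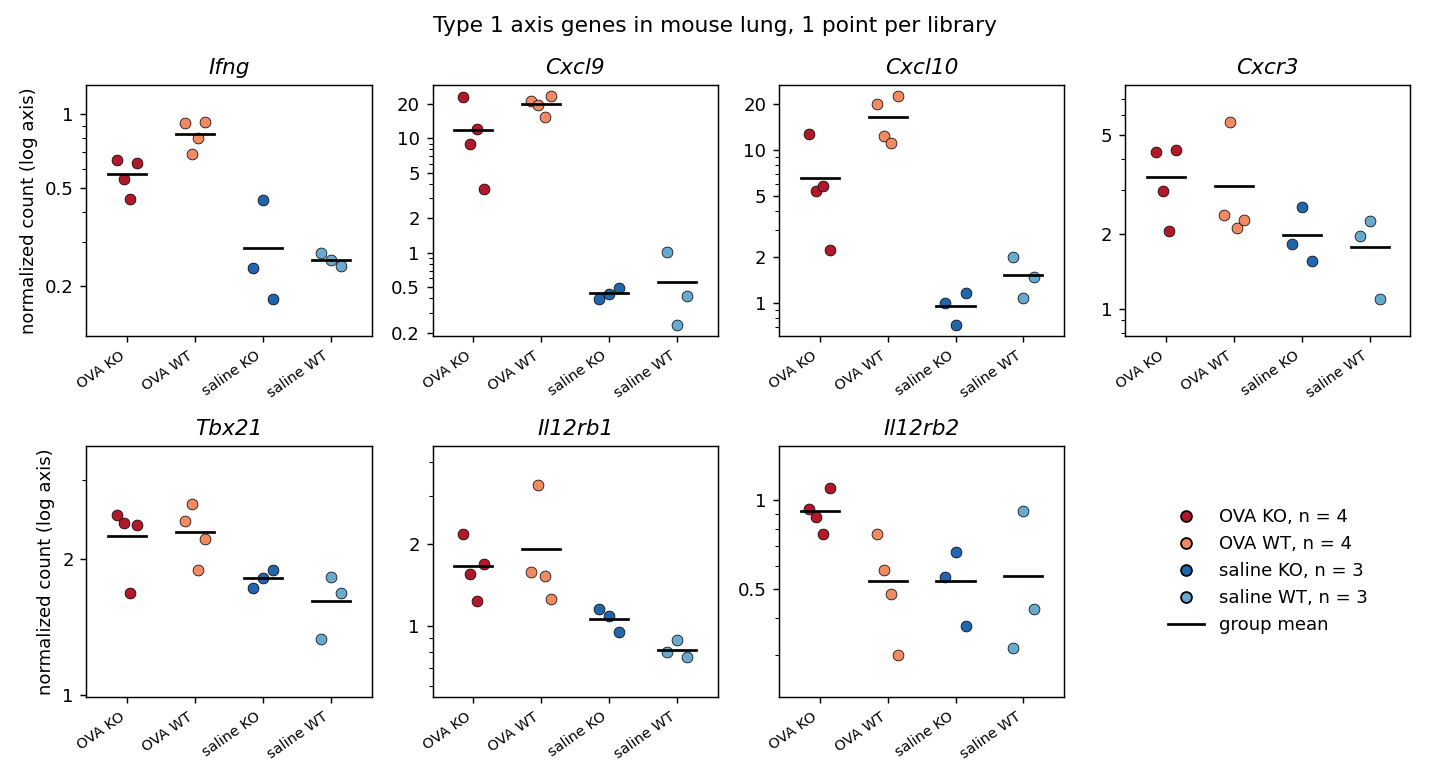
Normalized counts (log axes) of the 7 axis genes in the 4 groups, 1 point per library, with a black line at each group mean. *Cxcl9* and *Cxcl10* separate OVA from saline libraries in both genotypes, *Ifng* is highest in OVA-challenged *Mcemp1*+/+ lungs, and *Cxcr3* and *Il12rb1* each have 1 high OVA-challenged *Mcemp1*+/+ library (5.64 and 3.30).

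Counted together, 1 of the 7 genes (*Cxcl9*) was called in *Mcemp1*-/- lungs with OVA, beside 0.377% of all genes tested, or 0.21% called higher. In *Mcemp1*+/+ lungs 4 of the 7 (*Ifng*, *Cxcl9*, *Cxcl10* and *Il12rb1*) were called, all higher, beside 11.8% of all genes, or 4.36% called higher. The OVA and saline libraries did not overlap for 5 of the 7 genes in *Mcemp1*-/- lungs, beside 12.8% of all genes, and for 5 of the 7 in *Mcemp1*+/+ lungs, beside 22.9% of all genes. The median log2 change of the 7 was 0.46 in *Mcemp1*-/- and 0.81 in *Mcemp1*+/+ lungs, beside -0.01 in *Mcemp1*-/- and 0.01 in *Mcemp1*+/+ lungs over all genes.

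Between genotypes after OVA, 0 of the 7 genes were called by limma, beside 0.39% of all genes, and 4 had an unadjusted p under 0.05, beside 17.8% of all genes. *Cxcl10* differed most, with a mean of 6.52 ± 4.41 in *Mcemp1*-/- lungs and 16.4 ± 5.56 in *Mcemp1*+/+ lungs (SD, n = 4 each), a log2 difference of -1.43 ± 0.38 (limma, adjusted p = 0.103). *Cxcl9* averaged 11.9 ± 8.13 in *Mcemp1*-/- and 19.8 ± 3.38 in *Mcemp1*+/+ lungs, a difference of -0.96 ± 0.40 (limma, adjusted p = 0.23). For both ligands the groups overlapped through library 1 of the *Mcemp1*-/- mice, and without that library both passed, at -1.80 ± 0.32 for *Cxcl10* (limma, adjusted p = 0.0133) and -1.35 ± 0.33 for *Cxcl9* (adjusted p = 0.0407). Calls over all 22764 genes tested rose as well without that library, to 545 higher and 571 lower, against 42 and 47 in the reported fit. With columns scaled to equal totals, where the median gene differed by 0.11 between these groups, *Cxcl10* differed by -1.31 ± 0.36 (adjusted p = 0.0981).

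The groups did not overlap for 2 of the 7 genes after OVA, *Ifng* and *Il12rb2*, beside 7.13% of all genes. *Ifng* was 0.570 ± 0.092 in *Mcemp1*-/- and 0.834 ± 0.114 in *Mcemp1*+/+ lungs (SD, n = 4 each), a log2 difference of -0.32 ± 0.11 (limma, adjusted p = 0.175). Its estimated reads were 23.9 to 43.4 in *Mcemp1*-/- and 31.6 to 38.5 in *Mcemp1*+/+ libraries, which overlap, and the depth difference between these groups moves with the normalized value; its part was not tested. *Il12rb2* ran the other way, 0.919 ± 0.137 in *Mcemp1*-/- and 0.533 ± 0.194 in *Mcemp1*+/+ lungs, a difference of 0.47 ± 0.18 (limma, adjusted p = 0.194). All 9 NK and cytotoxic markers, genes of cells that also carry this receptor, were positive in the same comparison. Their median was 0.26 and 0 were called, beside 0.39% of all genes. All 9 markers were positive between genotypes after saline as well, with a median of 0.36 and 0 called, beside 0.0832% of all genes. In that comparison *Il12rb2* differed by -0.0002 ± 0.205. The part of these markers in the *Il12rb2* difference after OVA was not tested. In exact 2-sided permutation tests of these single genes over the 8 libraries, *Ifng* and *Il12rb2* each gave p = 0.0286 unadjusted, the smallest that 4 against 4 allows, *Cxcl10* gave 0.0857 and *Cxcl9* 0.114. The differences of *Cxcr3* (0.17 ± 0.29), *Tbx21* (-0.03 ± 0.13) and *Il12rb1* (-0.11 ± 0.20) had adjusted p of 0.802 to 0.924 by limma, and the sign of the last pair turned without *Mcemp1*+/+ library 2.

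After saline, 0 of the 7 genes were called between genotypes, beside 0.0832% of all genes, and 0 had an unadjusted p under 0.05 in limma, beside 3.32% of all genes. The log2 differences, *Mcemp1*-/- minus *Mcemp1*+/+, ran from -0.45 ± 0.44 for *Cxcl10* to 0.25 ± 0.24 for *Il12rb1*. *Il12rb1* was the 1 gene whose groups did not overlap (0.949 to 1.15 in *Mcemp1*-/- and 0.765 to 0.887 in *Mcemp1*+/+ lungs), beside 11.4% of all genes.

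The OVA responses of the genotypes were compared directly. For this difference of responses 0 of the 7 genes were called by limma, beside 0.00438% of all genes, and 0 had an unadjusted p under 0.05, beside 7.02% of all genes. Estimates, *Mcemp1*-/- response minus *Mcemp1*+/+ response, were -0.36 ± 0.17 for *Ifng*, -0.86 ± 0.60 for *Cxcl9* and -0.98 ± 0.58 for *Cxcl10* and 0.47 ± 0.27 for *Il12rb2*, with adjusted p of 0.713 to 0.785 in limma. The higher count of calls in *Mcemp1*+/+ lungs is therefore not itself shown to be a difference between genotypes. The contrasts between genotypes and those between treatments share libraries and are not independent of each other.

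**Figure D3:**
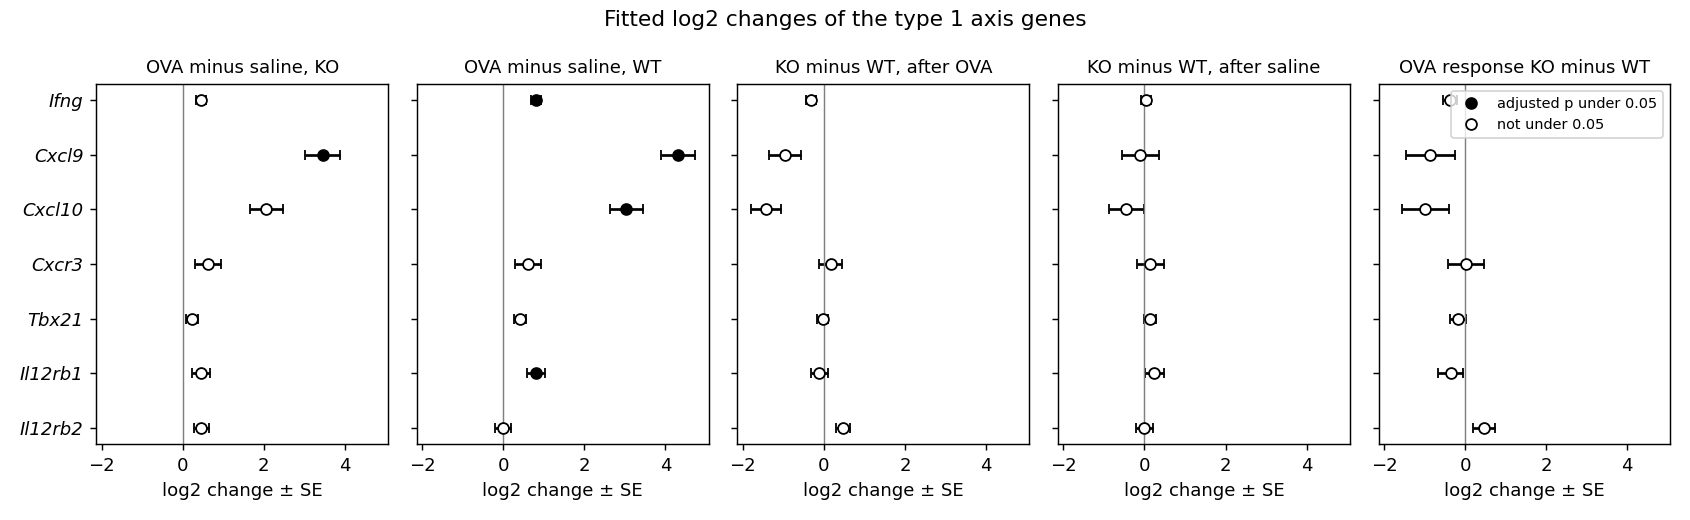
Log2 changes ± SE of the 7 axis genes in 5 comparisons, from left to right OVA minus saline in *Mcemp1*-/- and in *Mcemp1*+/+ lungs, *Mcemp1*-/- minus *Mcemp1*+/+ after OVA and after saline, and the difference of the OVA responses. Filled points passed the threshold of adjusted p under 0.05, and they are confined to OVA against saline: *Cxcl9* in *Mcemp1*-/- lungs and *Ifng*, *Cxcl9*, *Cxcl10* and *Il12rb1* in *Mcemp1*+/+ lungs.

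Levels of different genes were compared per kilobase of exon, since longer transcripts collect more reads. Exon length counted every base in an exon of any transcript, and for *Cxcl10* it covered the whole gene, 2252 bases in 1 block. A shorter spliced length could raise *Cxcl10* in each order below, so the orders hold on this scale only. In OVA-challenged *Mcemp1*-/- lungs the order was *Cxcl9* (3.94 ± 2.69 normalized counts per kilobase), *Cxcl10* (2.90 ± 1.96), *Cxcr3* (1.97 ± 0.64), *Tbx21* (0.904 ± 0.153), *Ifng* (0.440 ± 0.071), *Il12rb1* (0.405 ± 0.096) and *Il12rb2* (0.242 ± 0.036; SD, n = 4). In OVA-challenged *Mcemp1*+/+ lungs *Cxcl10* (7.29 ± 2.47) and *Cxcl9* (6.57 ± 1.12) were within their spread of each other and stood above *Cxcr3* (1.79 ± 0.98) and *Tbx21* (0.926 ± 0.132). After saline the ligands were no longer on top on this scale. In saline-treated *Mcemp1*-/- lungs *Cxcr3* (1.15 ± 0.30) and *Tbx21* (0.730 ± 0.034) were above *Cxcl10* (0.426 ± 0.10), and *Cxcl9* (0.147 ± 0.016) and *Il12rb2* (0.140 ± 0.039) were lowest and within their spread. In saline-treated *Mcemp1*+/+ lungs *Cxcr3* (1.03 ± 0.35), *Cxcl10* (0.671 ± 0.206) and *Tbx21* (0.648 ± 0.103) came first, and the other 4 genes lay between 0.146 and 0.199.

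*Ifng* and *Cxcr3* are made largely by lymphocytes, so each was set beside the T cell markers of its library. T cell marker sums were 116 to 172 in OVA-challenged *Mcemp1*-/- lungs and 104 to 473 in OVA-challenged *Mcemp1*+/+ lungs, against 103 to 111 in saline-treated *Mcemp1*-/- and 77.1 to 99.5 in saline-treated *Mcemp1*+/+ lungs. The library with the sum of 473 had the highest *Cxcr3* of all 14 (5.64) but the lowest *Ifng* of its group (0.689). As a share of the T cell marker sum, *Cxcr3* was 1.73% to 2.61% in OVA-challenged *Mcemp1*-/- lungs and 1.19% to 2.19% in OVA-challenged *Mcemp1*+/+ lungs, against 1.403% to 2.51% in saline-treated *Mcemp1*-/- and 1.42% to 2.27% in saline-treated *Mcemp1*+/+ lungs, so the ranges overlapped. *Ifng* was 0.318% to 0.398% in OVA-challenged *Mcemp1*-/- lungs and 0.146% to 0.898% in OVA-challenged *Mcemp1*+/+ lungs, where library 2 gave the lowest value and the other 3 were at 0.705% or above. After saline the *Ifng* share was 0.158% to 0.435% in *Mcemp1*-/- and 0.255% to 0.311% in *Mcemp1*+/+ lungs. Of the 14 T cell markers, 0 were called with OVA in *Mcemp1*-/- lungs and 1 (*Cd2*) was called higher in *Mcemp1*+/+ lungs, beside 4.36% of all genes. Of 9 NK and cytotoxic markers 0 were called in *Mcemp1*-/- and 3 (*Gzma*, *Gzmb* and *Klre1*) were called higher in *Mcemp1*+/+ lungs, beside 0.21% of all genes called higher in *Mcemp1*-/- and 4.36% in *Mcemp1*+/+ lungs. These 4 genes fall outside the rule for names and were chosen after their values were seen.

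**Figure D4:**
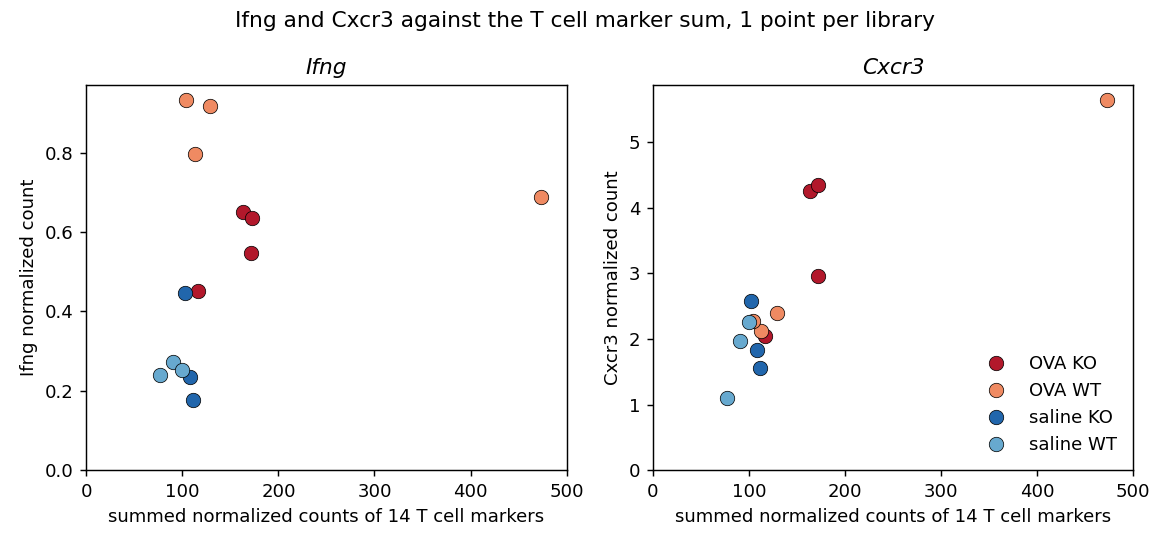
*Ifng* (left) and *Cxcr3* (right) normalized counts against the summed normalized counts of 14 T cell markers, 1 point per library, coloured by group. The library at 473 has the highest *Cxcr3* (5.64) and the lowest *Ifng* of the OVA-challenged *Mcemp1*+/+ libraries (0.689), while the other OVA-challenged *Mcemp1*+/+ libraries have high *Ifng* at marker sums of 104 to 129.

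A list of 24 genes known to be induced by interferon gamma was also followed. Among them were *Irf1*, a transcription factor, *Gbp2*, a guanylate-binding protein of host defence, and *Ciita*, the master regulator of MHC class II. Which signal moved these genes here was not tested. Of the 24, 23 rose with OVA in *Mcemp1*+/+ lungs, beside 4.36% of all genes, with a median log2 change of 1.09 over the list. In *Mcemp1*-/- lungs 0 were called, beside 0.21% of all genes called higher, and 23 were positive with a median of 0.38. The median of all genes was -0.01 in *Mcemp1*-/- and 0.01 in *Mcemp1*+/+ lungs. *Gbp2* averaged 73.6 in OVA-challenged *Mcemp1*-/- and 109 in OVA-challenged *Mcemp1*+/+ lungs, against 48.4 in saline-treated *Mcemp1*-/- and 48.0 in saline-treated *Mcemp1*+/+ lungs. It changed by 0.56 ± 0.22 in *Mcemp1*-/- (limma, adjusted p = 0.353) and by 1.18 ± 0.22 in *Mcemp1*+/+ lungs (adjusted p = 0.005). *Irf1* changed by 0.12 ± 0.14 in *Mcemp1*-/- and 0.71 ± 0.14 in *Mcemp1*+/+ lungs, and *Ciita* by 0.29 ± 0.21 in *Mcemp1*-/- and 0.94 ± 0.21 in *Mcemp1*+/+ lungs, and both passed in *Mcemp1*+/+ lungs only (limma, adjusted p = 0.00623 and 0.0123).

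Between genotypes after OVA all 24 values were negative, with a median of -0.67, and 1 (*Cd274*, the gene of PD-L1, which interferon gamma induces; outside the rule for names and chosen after its value was seen) was called lower in *Mcemp1*-/- lungs, beside 0.206% of all genes. That count was 17 without library 1 of the OVA-challenged *Mcemp1*-/- mice and ran from 0 to 5 when any other library was left out. Without library 1 calls rose over all genes too, with 571 of 22764 genes called lower, against 47 of 22828 in the reported fit. In the direct comparison of OVA responses all 24 estimates were negative (median -0.68) and 0 were called by limma, beside 0.00438% of all genes. The summed normalized counts of the list were 1018 to 1570 in OVA-challenged *Mcemp1*-/- lungs and 1440.4 to 2146 in OVA-challenged *Mcemp1*+/+ lungs, against 833 to 979 in saline-treated *Mcemp1*-/- and 795 to 979.9 in saline-treated *Mcemp1*+/+ lungs. The *Mcemp1*-/- library with the highest sum, library 1, was also the one highest in *Cxcl9* and *Cxcl10*. Of 12 markers of monocytes and macrophages, cells that make these chemokines, 0 were called with OVA in *Mcemp1*-/- lungs, beside 0.21% of all genes called higher. In *Mcemp1*+/+ lungs 9 of the markers were called higher, beside 4.36% of all genes. The mean log2 level of the 12 markers was 5.30 to 5.56 in OVA-challenged *Mcemp1*-/- and 5.44 to 5.72 in OVA-challenged *Mcemp1*+/+ lungs, against 4.83 to 5.04 in saline-treated *Mcemp1*-/- and 4.87 to 5.18 in saline-treated *Mcemp1*+/+ lungs. Their summed normalized counts, most of which came from the lysozyme gene *Lyz2* (group means of 3228 to 4407; outside the rule for names), had another order, at 4434 to 5466 in OVA-challenged *Mcemp1*-/- and 2673 to 4090 in OVA-challenged *Mcemp1*+/+ lungs, against 3145 to 4684 in saline-treated *Mcemp1*-/- and 3854 to 4400 in saline-treated *Mcemp1*+/+ lungs. Mitochondrial transcripts were called higher with OVA in 0 of 9 cases in *Mcemp1*-/- and in 9 of 9 in *Mcemp1*+/+ lungs, beside 0.21% of all genes called higher in *Mcemp1*-/- and 4.36% in *Mcemp1*+/+ lungs. Heart muscle genes were called lower in 0 of 10 cases in *Mcemp1*-/- and in 9 of 10 in *Mcemp1*+/+ lungs, beside 0.166% of all genes called lower in *Mcemp1*-/- and 7.45% in *Mcemp1*+/+ lungs. The part of these lists in the changes of the axis was not tested.

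**Figure D5:**
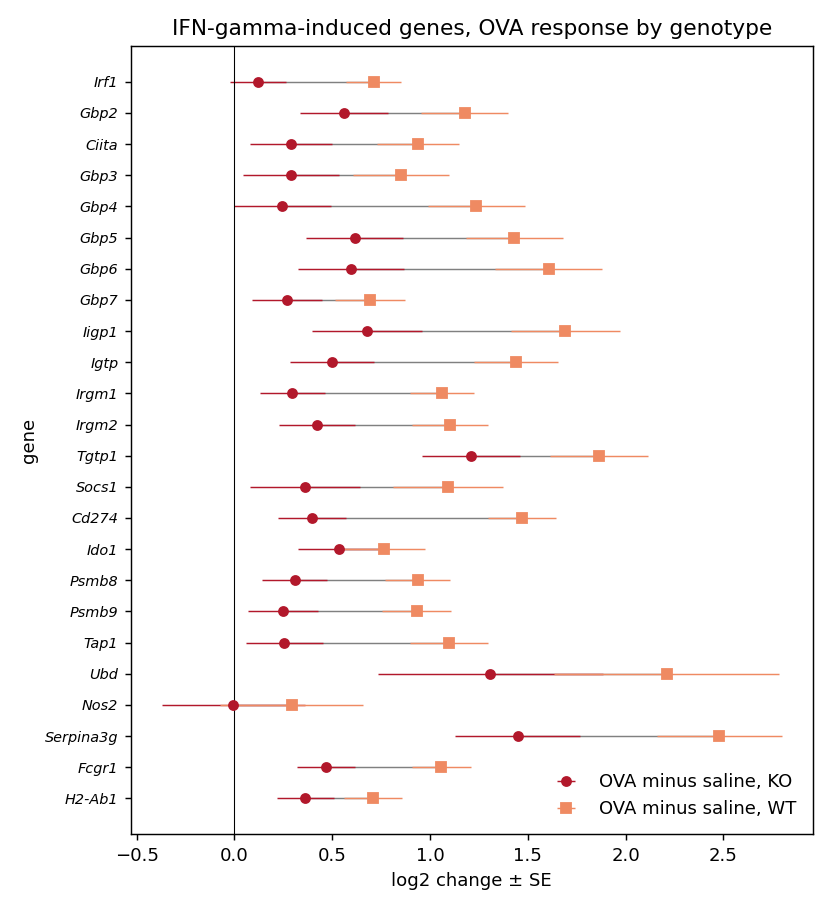
Log2 change ± SE with OVA of 24 interferon gamma-induced genes, with circles for *Mcemp1*-/- and squares for *Mcemp1*+/+ lungs and a line joining the pair for each gene. Every square lies right of its circle, with medians of 0.38 for the circles and 1.09 for the squares. The difference passed the threshold for 0 of the 24 genes, beside 0.00438% of all genes.

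Other genes of the pathway were followed as well. Of the 4 receptor and kinase genes of interferon gamma, *Ifngr2* (0.43 ± 0.11, limma, adjusted p = 0.0213) and *Jak2* (0.37 ± 0.09, adjusted p = 0.0211) rose in *Mcemp1*+/+ lungs, beside 4.36% of all genes called higher. In *Mcemp1*-/- lungs 0 were called, beside 0.21% of all genes, and *Ifngr2* changed by 0.14 ± 0.11 and *Jak2* by 0.26 ± 0.09. Of 15 genes of IL-12, IL-18 and type 1 transcription factors, 1 (*Runx3*, which cooperates with T-bet; outside the rule for names) was called higher in *Mcemp1*+/+ lungs (1.08 ± 0.23; limma, adjusted p = 0.00837), beside 4.36% of all genes, and 0 in *Mcemp1*-/- lungs. *Il12b*, the gene of the shared chain of IL-12 and IL-23, averaged 0.701 in OVA-challenged *Mcemp1*-/- and 0.619 in OVA-challenged *Mcemp1*+/+ lungs, against 0.433 in saline-treated *Mcemp1*-/- and 0.484 in saline-treated *Mcemp1*+/+ lungs. *Il18*, a partner of IL-12 in inducing *Ifng*, averaged 11.1 in OVA-challenged *Mcemp1*-/- and 10.5 in OVA-challenged *Mcemp1*+/+ lungs, against 10.2 in saline-treated *Mcemp1*-/- and 8.68 in saline-treated *Mcemp1*+/+ lungs. Neither passed in either genotype.

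Among 7 other chemokines and receptors that guide type 1 cells, 0 were called with OVA in *Mcemp1*-/- lungs, beside 0.21% of all genes called higher. In *Mcemp1*+/+ lungs 3 were called higher, beside 4.36% of all genes. They were *Cxcl16* and, outside the rule for names and chosen after their values were seen, *Ccl4* and *Xcl1*. *Cxcl16*, the ligand of CXCR6, rose in *Mcemp1*+/+ lungs by 0.56 ± 0.10 (limma, adjusted p = 0.00452) and changed by 0.45 ± 0.10 in *Mcemp1*-/- lungs (adjusted p = 0.0805). *Ccl5*, a T cell chemokine, and *Cxcr6*, a receptor of tissue-resident T cells, did not pass in either genotype.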

How the data were processed

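Lung RNA-seq libraries (KAPA mRNA HyperPrep, polyadenylated RNA) were, per the labels, aligned by the authors with STAR to mm10 in Partek; the version of STAR is not given in the sources used here. The deposited normalized counts carry no stated normalization and were treated as a signal: in each column 71.3% to 74.1% of low values (below 60 reads) lay within 0.1 of a whole multiple of the lowest value, so they could not serve as counts, and column totals differed. No value was 0, so the lowest value of a library was taken as 0 reads with 1 read added. Depth was estimated as the column total over the lowest value, and reads of a gene as its value over the lowest, less 1. Values were tested as log2(value + 0.502), 0.5 ppm of the mean column total, for genes with at least 0.2 ppm in at least 3 libraries. limma 3.58.1 (R 4.3.3; lmFit, contrasts.fit, eBayes with trend and robust) was fitted to the 4 groups, with 5 contrasts, 2-sided tests, Benjamini-Hochberg adjustment over all genes tested and a threshold of 0.05. The test of the original study, run in Partek, was not used here. The fit was first checked on data simulated with known changes. No library duplicated another.

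A few list genes are not reported here and were left out of the lists. Axis genes and lists were chosen with earlier results of these data known. The text names all axis genes, up to 4 genes of each list in a set order, *Mcemp1*, and for *Ifng*, *Cxcl9* and *Cxcr3* the 5 genes most like each in deviations from group means. Gene positions and exon lengths are from GENCODE M21 on GRCm38 by Ensembl identifier, because the deposited coordinates follow another build. An exon length counts every base that lies in an exon of any transcript of the gene. Promoters are from RefSeq (GRCm38.p6), with 6 of the 8 genes matched. Alternatives covered pseudocount, filter, scaling, offset, the limma trend, library weights, a fit restricted to the groups in question, a block for replicate number, leaving out each library or the 2 airway-rich ones, and exact permutation. The labels do not say that equal numbers mark pairs, and the numbers were not treated as pairs. For same-numbered libraries r ran from -0.347 to 0.451 between the OVA groups and from -0.267 to 0.198 between the saline groups. It ran from 0.067 to 0.152 between the *Mcemp1*-/- groups and from -0.265 to 0.216 between the *Mcemp1*+/+ groups. These values do not settle whether samples were paired.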

Additional observations from a re-analysis of the deposited data

Results flagged for a closer look

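Among 14 sets of 4 OVA libraries, 1 for each of the 7 axis genes in each genotype, 3 had a library far from the others, where chance flags about 1 in 20. *Cxcr3* in OVA-challenged *Mcemp1*+/+ library 2 was 5.64 against 2.39 for the next library, a gap of 0.922 of the range of its group. *Il12rb1* in the same library was 3.30 against 1.58, a gap of 0.841 of the range. *Tbx21* in OVA-challenged *Mcemp1*-/- library 3 was 1.69 against 2.39, a gap of 0.848 of the range. These are the libraries with the highest sums of mucous airway genes in their groups (2627 and 4256), and the first also had the highest T and B cell marker sums; the part of these in the values was not tested.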

How the results depend on the processing

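Under 14 alternatives and the omission of each of 14 libraries, the axis genes called with OVA in *Mcemp1*+/+ lungs numbered 3 or 4 (4 in the reported fit). None were called after saline (13 alternatives) or in the difference of responses (12 alternatives), for which the exact tests and, in the second, the fit of only the groups compared were not run. In *Mcemp1*-/- lungs the reported 1 became 2 with a pseudocount of 0.1 ppm, equal column totals, the offset subtracted or both airway-rich libraries removed, 3 with array weights or unadjusted exact tests, and 0 with only the 2 groups fitted; it was 1 to 2 with a library left out. Between genotypes after OVA the reported 0 became 2 with unadjusted exact tests, and was 0 to 2 with a library left out. With replicate number as a block, 2 were called in *Mcemp1*-/- lungs and 4, 0, 0 and 0 elsewhere. The labels do not say whether equal numbers mark paired samples.

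No called change turned sign. Uncalled ones near 0 did. With equal totals *Tbx21* after OVA between genotypes was 0.0696, and with array weights it was 0.0635 and *Il12rb1* 0.0305; without both airway-rich libraries they were 0.13 and 0.23. For *Il12rb2*, OVA against saline in *Mcemp1*+/+ lungs was 0.0039 at 0.1 ppm, 0.0096 after quantile normalization and 0.0202 under the block, and between genotypes after saline it was 0.028 at 0.1 ppm and 0.0014 with median-ratio factors. After saline, array weights gave 0.0874 for *Cxcl9* and -0.0822 for *Cxcr3*. The *Cxcr3* difference of responses was -0.0036 after quantile normalization. With libraries left out, the ranges were -0.17 to 0.22 (*Il12rb2*, OVA in *Mcemp1*+/+), -0.11 to 0.0746 (*Tbx21*) and -0.24 to 0.13 (*Il12rb1*) between genotypes after OVA, -0.10 to 0.14 (*Ifng*), -0.33 to 0.19 (*Cxcl9*), -0.0894 to 0.31 (*Cxcr3*) and -0.16 to 0.23 (*Il12rb2*) after saline, and -0.14 to 0.31 (*Cxcr3*, responses). The causes were not tested.

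Over all genes, calls with OVA in *Mcemp1*-/- lungs (86) ran from 11 to 645, in *Mcemp1*+/+ lungs (2695) from 1161 to 4807, between genotypes after OVA (89) from 17 to 1116 and after saline (19) from 10 to 48. Equal totals moved the median gene by -0.17 in *Mcemp1*+/+ lungs, where 467 genes were then higher and 4340 lower, against 995 and 1700 in the reported fit. In *Mcemp1*-/- lungs the split was 59 and 86 against 48 and 38, and between genotypes after OVA 101 and 31 against 42 and 47. Of the 24 interferon gamma-induced genes, 0 to 2 were called in *Mcemp1*-/- and 17 to 23 in *Mcemp1*+/+ lungs. *Ifng* and *Il12rb2* were not tested under the filter at 1 ppm, which neither passed. *Ifng* and *Il12rb2* rest on few reads, which limits their precision.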

Other observations

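Genes of the type 2 response were measured in the same libraries. Of 11 such genes, *Il13* is left out of the calls for the reason given below. None of the others was called with OVA in *Mcemp1*-/- lungs, beside 0.21% of all genes called higher. In *Mcemp1*+/+ lungs *Gata3* was called higher, beside 4.36% of all genes. *Il33* and *Ccr3*, outside the rule for names and chosen after their values were seen, were also called higher there. *Il13*, the cytokine of mucus production, averaged 0.0805 in OVA-challenged *Mcemp1*-/- and 0.308 in OVA-challenged *Mcemp1*+/+ lungs, against 0.0310 in both saline groups. The lowest value of a library, taken as 0 reads, was 0.0143 to 0.0237, so outside the OVA-challenged *Mcemp1*+/+ lungs *Il13* lay near the floor. It passed the filter on low values only through that group, and its test is therefore not given. *Gata3*, the transcription factor of type 2 lymphocytes, rose in *Mcemp1*+/+ lungs by 0.58 ± 0.14 (limma, adjusted p = 0.0166). *Il4* and *Il5* had group means of 0.301 to 0.837 and did not pass in either genotype.

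Deviations of other genes from their group means over the 14 libraries were compared with those of the axis genes among 14166 genes with a mean of at least 1 ppm. The nearest to *Cxcl9* were *Oas1g* (r = 0.887), an interferon-induced oligoadenylate synthetase gene, *Btf3-ps4*, *Lacc1*, *Metrnl* and *Dmac1* (r of 0.854 to 0.886). Those nearest to *Cxcr3* were *Pdcd11*, *Usp7*, *Prr5*, *Lrp10* and *Mfge8* (r of 0.932 to 0.952), and those nearest to *Ifng* were *Trim8*, *Mical3*, *Galnt17*, *Smad6* and *Adcy4* (r of 0.851 to 0.898). Between axis genes r was 0.850 for *Cxcr3* with *Il12rb1* and 0.026 for *Ifng* with *Cxcl9*. These values describe libraries that share depth and tissue makeup.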
